A study of Homo sapiens with 2 samples.

Results

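The GALNT genes encode the polypeptide N-acetylgalactosaminyltransferases, the Golgi enzymes that begin mucin-type O-glycosylation. Expression of 10 of them (GALNT1, GALNT2, GALNT3, GALNT5, GALNT6, GALNT7, GALNT10, GALNT11, GALNT12 and GALNT14) was compared between PC3 cells and their cabazitaxel (CBZ)-resistant subline PC3CR. PC3 is a human prostate cancer cell line, and CBZ is a taxane, a drug that stabilises microtubules. PC3CR is a single subline, passaged in CBZ for 18 months, and its RNA was taken after 3 months without the drug. The labels give no months of CBZ for PC3, and both lines were kept in the same medium with serum. Total RNA of each line was hybridised to 1 array, so that no difference has a replicate check and no P-value was computed. The 10 genes were chosen by name, with GALNT3 already known as one of the largest decreases of the array, and their values are therefore given as a description. They are 10 of 19775 genes on the array and are read by 27 of its 54613 probe sets, the groups of short DNA probes that each report on a transcript.

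A GALNT enzyme transfers N-acetylgalactosamine (GalNAc) from the donor UDP-GalNAc to a serine or threonine of a protein that passes through the Golgi. The first GalNAc, also called the Tn antigen, is then lengthened by galactose and other sugars and capped with sialic acid. Human cells hold many GALNT enzymes with overlapping but different acceptor proteins, and some of them prefer acceptors that already carry a GalNAc. Exposed Tn antigen and shifts in GALNT expression are well known in epithelial cancers, prostate cancer among them.

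The values are log2 expression values that the authors made by the robust multichip average (RMA), and a difference is PC3CR minus PC3 on that scale, so that a difference of 1 is a 2-fold change. Of the probe sets of a gene, the one brightest on average over both arrays stands for the gene, and all other probe sets of the 10 genes are also given. Values of different genes come from different probes, so that a level of one gene says little beside that of another. The median over all genes was 5.93 for PC3 and 6.05 for PC3CR, and the lower quartile was 4.22 and 4.10, below which a value lies near the floor of the array. The median difference over all genes was -0.04, and among 10 control genes, such as the cytoskeletal gene ACTB and the glycolytic gene GAPDH, none passed 2-fold. The epithelial markers EPCAM, CDH1, KRT8, KRT18 and KRT19 lay above the median of both arrays, with 8.75 to 11.69 in PC3 and 8.03 to 12.36 in PC3CR. They were not alike between the lines, and differed in this order by -2.49, -0.67, 0.07, 0.67 and -3.28. The measured leukocyte markers PTPRC, CD3E and CD14 and the neuroendocrine markers CHGA, SYP and NCAM1 lay below the median of both arrays. Of 4 fibroblast markers, 2 lay below the median in PC3 and 3 in PC3CR, with COL1A1 at 8.69 and 6.56, and their part in the results was not tested. Of 3 endothelial markers, 2 lay below the median in PC3 and 3 in PC3CR, with PECAM1 at 6.41 and 5.81. The prostate luminal markers KLK3, TMPRSS2 and HOXB13 differed by 0.04, -0.45 and -1.73, and the mesenchymal marker VIM by 1.21, from 11.47 to 12.68. In RNA of a whole culture, fewer cells of a type and less RNA per cell cannot be told apart.

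Expression of the GALNT enzymes went in both directions, with more genes higher than lower in PC3CR. Of the 10 genes, 5 passed 2-fold upward in PC3CR (GALNT1, GALNT2, GALNT10, GALNT12 and GALNT14), GALNT3 passed it downward, and 4 did neither. Over all genes, 9.84% passed 2-fold upward and 6.72% downward. These shares cover genes of any signal, whereas in 9 of the 10 GALNT genes the higher value reached the array median. No share among genes of like signal is given. The median difference of the 10 genes was 0.90, and it was 1.004 without GALNT3. Because the genes were chosen with these values in view, the counts are not evidence about the family as a whole. With the 9 other measured GALNT genes added, 6 of 19 passed 2-fold upward and 1 downward, and the median became 0.36.

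Promoter windows of the GALNT genes were searched for the letters CACCTG, which zinc finger repressors of epithelial genes such as ZEB1, SNAI1 and SNAI2 are known to bind. They were found in 3 of 11 windows, against 20.6% of all 35116 windows of the same length, a share near that background. The windows of RefSeq on GRCh38.p14 span 250 bases before and 50 bases after a transcript start. They covered 8 of the 10 genes, all but GALNT5 and GALNT6, and were searched on both strands for CACCTG, for GGGCGG, which SP1-type factors bind, and for CACGTG, which reads the same on both strands. The 250 bases before the start are shown 5′ to 3′ for the windows with CACCTG on either strand, which is in capitals. Of their genes, GALNT3 was lower and GALNT12 and GALNT14 were higher in PC3CR.

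GALNT3, chr2:165794248-165794497, strand minus: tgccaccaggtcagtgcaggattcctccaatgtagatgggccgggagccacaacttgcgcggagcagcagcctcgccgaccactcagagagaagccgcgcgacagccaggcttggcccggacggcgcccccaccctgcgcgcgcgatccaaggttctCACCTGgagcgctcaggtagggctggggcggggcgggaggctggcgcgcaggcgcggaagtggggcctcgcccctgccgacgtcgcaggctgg
GALNT12, chr9:98807420-98807669, strand plus: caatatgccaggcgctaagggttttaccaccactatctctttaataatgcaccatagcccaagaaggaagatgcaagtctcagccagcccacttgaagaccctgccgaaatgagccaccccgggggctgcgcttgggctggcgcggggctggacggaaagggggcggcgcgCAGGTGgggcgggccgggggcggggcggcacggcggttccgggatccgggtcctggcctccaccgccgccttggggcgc
GALNT14, chr2:31138441-31138690, strand minus: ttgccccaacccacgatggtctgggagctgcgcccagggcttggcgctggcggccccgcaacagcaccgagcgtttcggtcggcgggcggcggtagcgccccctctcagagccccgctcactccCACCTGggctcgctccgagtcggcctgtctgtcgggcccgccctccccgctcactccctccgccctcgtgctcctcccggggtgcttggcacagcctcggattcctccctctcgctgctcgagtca

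In the GALNT3 window CACCTG began at base -93 from the start and again at base 5 after it, outside the stretch shown. In GALNT14 it began at base -126, and in GALNT12 it lay on the other strand, where its reverse complement CAGGTG began at base -79. GGGCGG was in 8 of the 11 GALNT windows, those of 7 genes, against 44.95% of all windows, and it overlapped none of the CACCTG matches in these windows. CACGTG was in none of the 11, against 7.26% of all windows. The GC content ranged from 45% to 86%, and the median of all windows was 58.7%. It was 68.7% to 86% in the windows with GGGCGG, and 45%, 51.3% and 51.7% in those without. How far the share of GGGCGG follows GC content was not tested. A match of 6 letters is a description of the sequence and was not tested for binding.

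**Figure D1:**
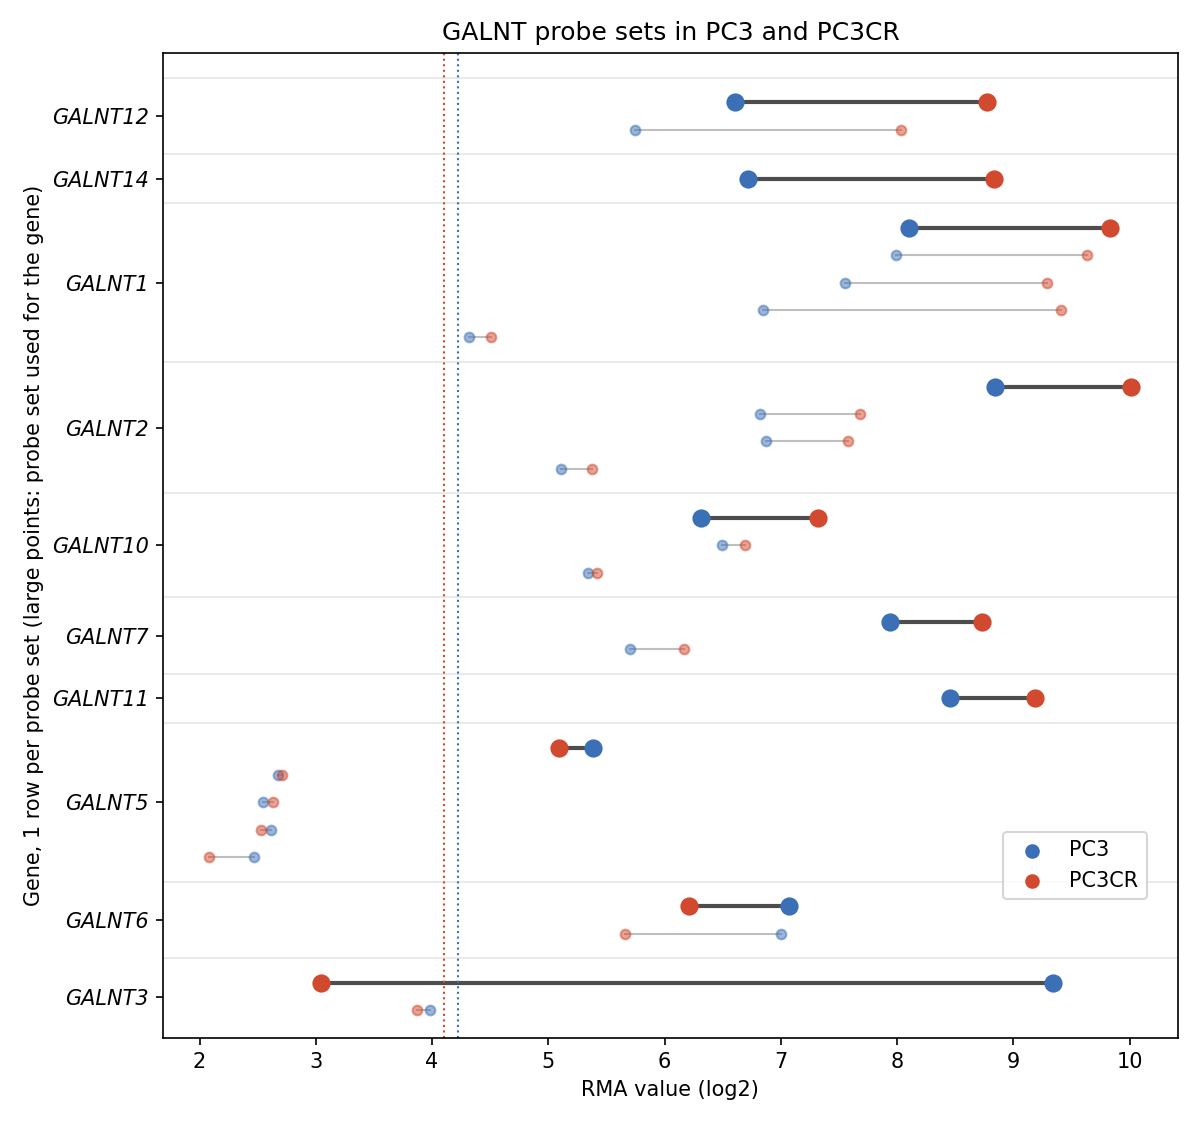
RMA values (log2, horizontal axis) of the 27 GALNT probe sets in PC3 (blue) and PC3CR (red), 1 array per cell line, with a grey line joining the values of a probe set. Large points are the probe set used for the gene, genes are ordered by difference, and dotted lines mark the lower quartile of genes on each array (4.22 and 4.10). The line of GALNT3 runs from 9.34 down to 3.05, whereas GALNT12, GALNT14 and GALNT1 are shifted upward.

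GALNT3 was the gene with the largest difference of the family. GALNT3 encodes an enzyme of secretory epithelia that is best known for glycosylating the hormone FGF23, and its inherited loss causes deposits of calcium phosphate in soft tissue. It read 9.34 in PC3 and 3.05 in PC3CR and so differed by -6.29. The linear ratio was 78.3, whose size is limited by the PC3CR value, which lay below the lower quartile of that array. Of all genes, 8 had a lower difference. The second probe set of GALNT3 was at 3.99 in PC3 and 3.87 in PC3CR, near the floor of both arrays, and differed by -0.12. The decrease therefore rested on 1 of 2 probe sets, and the mean of both differed by -3.20. The arrays do not show which of the probe sets reports on the GALNT3 transcript of these cells.

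The probe sets with values nearest to those of GALNT3, by the distance between log2 values over the 2 arrays, were those of AGR2, TGFB1I1, CCL26, KRTAP19-3 and KRT37. AGR2, which encodes a protein disulfide isomerase of mucus-secreting epithelia, was the nearest, at 9.31 in PC3 and 3.40 in PC3CR, a distance of 0.35, while its second probe set differed by -0.85. TGFB1I1 followed at 9.02 and 3.30, a distance of 0.41, and the other 3 lay at distances between 0.87 and 1.01. All 5 genes lay below the lower quartile in PC3CR, as GALNT3 did. They were matched on the values by which GALNT3 was chosen and on different probes, so that the likeness is a description of these 2 arrays only.

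GALNT6 is the closest relative of GALNT3 in the family and glycosylates fibronectin and mucins in breast and other epithelial cancers. It read 7.07 in PC3 and 6.21 in PC3CR and so differed by -0.86, within 2-fold. Its second probe set read 7.001 in PC3 and 5.66 in PC3CR and differed by -1.34, past 2-fold. Both probe sets were lower in PC3CR, and their mean difference was -1.10.

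GALNT12 had the largest increase of the 10 genes. The enzyme prefers acceptors that already carry a GalNAc, and its gene has been studied in colorectal cancer. It read 6.61 in PC3 and 8.77 in PC3CR, 4.50-fold apart with a difference of 2.17. Its second probe set went from 5.74 to 8.03, a difference of 2.29, so that both probe sets gave a similar size. GALNT14, whose enzyme glycosylates death receptors of the TRAIL pathway, read 6.72 in PC3 and 8.84 in PC3CR, 4.34-fold apart with a difference of 2.12. It was read by 1 probe set only. Of all genes, 240 had a higher difference than GALNT12 and 263 had a higher difference than GALNT14.

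GALNT1 and GALNT2, the broadly expressed enzymes that start O-glycans on many secreted proteins, were also higher. GALNT1 read 8.10 in PC3 and 9.83 in PC3CR, 3.31-fold apart with a difference of 1.73. Each of the 5 probe sets for GALNT1 had the higher value in PC3CR, 4 of them by at least 2-fold, with differences from 0.18 for the dimmest to 2.56. GALNT2, whose enzyme glycosylates apolipoprotein C-III, read 8.84 in PC3 and 10.02 in PC3CR, 2.26-fold apart with a difference of 1.18. All 4 of its probe sets were higher, but the other 3 differed by 0.86, 0.70 and 0.27, and the mean of the 4 was 0.75. The direction of GALNT2 was therefore shared by its probe sets, and its passing 2-fold was not.

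GALNT10 and GALNT7 encode enzymes that, like GALNT12, act mainly on peptides with a GalNAc already in place. GALNT10 read 6.31 in PC3 and 7.32 in PC3CR and so differed by 1.004, just past the 2-fold limit. Its other 2 probe sets differed by 0.20 and 0.07, and the mean of the 3 was 0.43. After loess centring or quantile normalization GALNT10 differed by 0.87 and lay within 2-fold. GALNT7 read 7.94 in PC3 and 8.73 in PC3CR and so differed by 0.79, and its second probe set by 0.46. GALNT11, an enzyme that acts on NOTCH1 and on receptors of the LDL receptor family, read 8.46 in PC3 and 9.18 in PC3CR and so differed by 0.73 from 1 probe set. These last 2 genes were higher in PC3CR but within 2-fold, and the control genes SDHA and POLR2A differed by 0.75 and 0.68.

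GALNT5 had no probe set that reached the array median. Its brightest probe set read 5.38 in PC3 and 5.09 in PC3CR and so differed by -0.29. The other 4 probe sets lay between 2.09 and 2.71 on both arrays, near the floor, and differed by between -0.38 and 0.09. Without replicates, differences of this size in GALNT5 cannot be set against an error. Across the 8 members with several probe sets, all probe sets of a gene had one direction in 7, GALNT5 being the exception. Of the 27 probe sets, 9 passed 2-fold upward in PC3CR, 2 passed it downward and 16 did neither. Of the upward ones, 4 read GALNT1 and 2 read GALNT12, and probe sets of a gene share its RNA. No share over all probe sets was computed, so these counts have no background beside them.

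**Figure D2:**
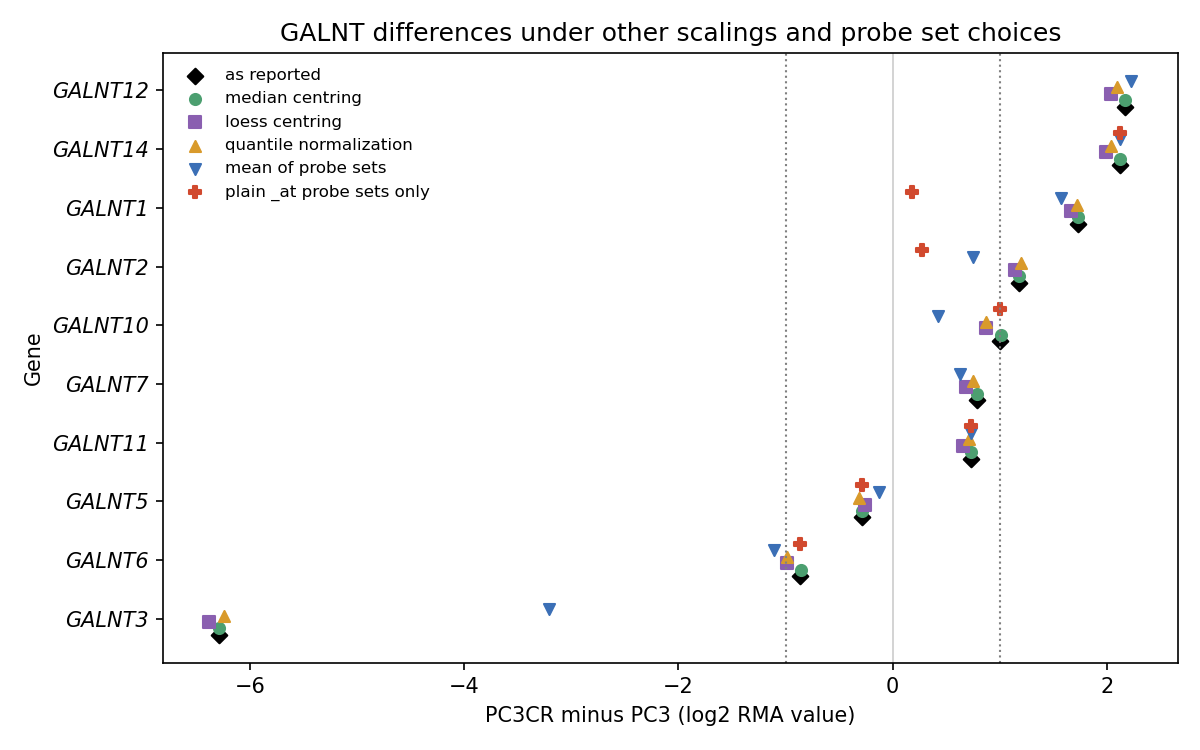
PC3CR minus PC3 in log2 RMA units (horizontal axis) of each GALNT gene as reported and under 5 other settings, with 1 point per setting. Dotted lines mark 2-fold. GALNT12 and GALNT14 stay near or above 2 wherever they have a value, but GALNT14 has 1 probe set, which no choice of probe sets can change. GALNT3 ranges from -6.38 to -3.20, and GALNT1, GALNT2 and GALNT10 move inside 2-fold under at least 1 choice of probe sets. For GALNT1 it is the choice that leaves only its dimmest probe set.

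Among the 9 other GALNT genes measured, GALNT16 alone passed 2-fold, from 5.77 up to 7.60, a gap of 1.83. Its 3 probe sets were not alike, with 1 at -0.23, and their mean difference was 0.97. In 2 of these 9 genes the higher of both values reached the array median, against 9 of the 10 genes described here, and their median difference was 0.09.

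The genes that lie beside a GALNT gene on its chromosome were read next, with the 5 nearest measured genes on each side. Around GALNT3, on chromosome 2, the 10 neighbours had a median of -0.18, and none passed 2-fold downward. All of them but COBLL1, the sodium channel genes SCN1A, SCN2A, SCN3A, SCN7A and SCN9A included, lay below the lower quartile of both arrays, where a decrease could not be seen. COBLL1, the fifth gene on one side, differed by 2.96, from 4.75 to 7.71. With neighbours restricted to genes whose higher value reached the array median, the median was 0.02, and 3 of 10 passed 2-fold upward and 1 downward.

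GALNT1, on chromosome 18, had neighbours that were higher as well. All 10 were higher in PC3CR, with differences from 0.55 to 1.72 and a median of 1.004, and 5 of the 10 were at least 2-fold higher. These were the zinc finger genes ZSCAN30 at 1.58, ZNF24 at 1.18 and ZNF396 at 1.11, RPRD1A, which encodes a protein that binds RNA polymerase II, at 1.72, and the zinc transporter gene SLC39A6 at 1.47. With 10 genes a side the median was 0.79. Over chromosome 18, 62 of 303 genes passed 2-fold upward and 14 downward, against 9.84% and 6.72% of all genes. The median of the chromosome was 0.12. DNA copy number was not analysed here, and its part in these values was not tested.

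The neighbours of the other 8 genes had medians between -0.16 and 0.12, and none of these neighbours was at least 2-fold lower. With 10 genes a side, GALNT7, GALNT10, GALNT11 and GALNT12 each had 1 neighbour at least 2-fold lower. With the restriction on signal, GALNT7 and GALNT11 each had 1. With 5 genes a side, those at least 2-fold higher were ABCB10 near GALNT2 at 1.44, SLC4A8 beside GALNT6 at 1.15 and SAP30L beside GALNT10 at 1.66. The others were PRKAG2-AS1 near GALNT11 at 1.62 and LBH near GALNT14 at 1.74. The shares over all genes were 9.84% upward and 6.72% downward. The neighbours of GALNT12 and GALNT14 had medians of 0.07 and 0.05. For GALNT2 the median of neighbours was -0.14, and it was 0.68 with the restriction on signal.

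**Figure D3:**
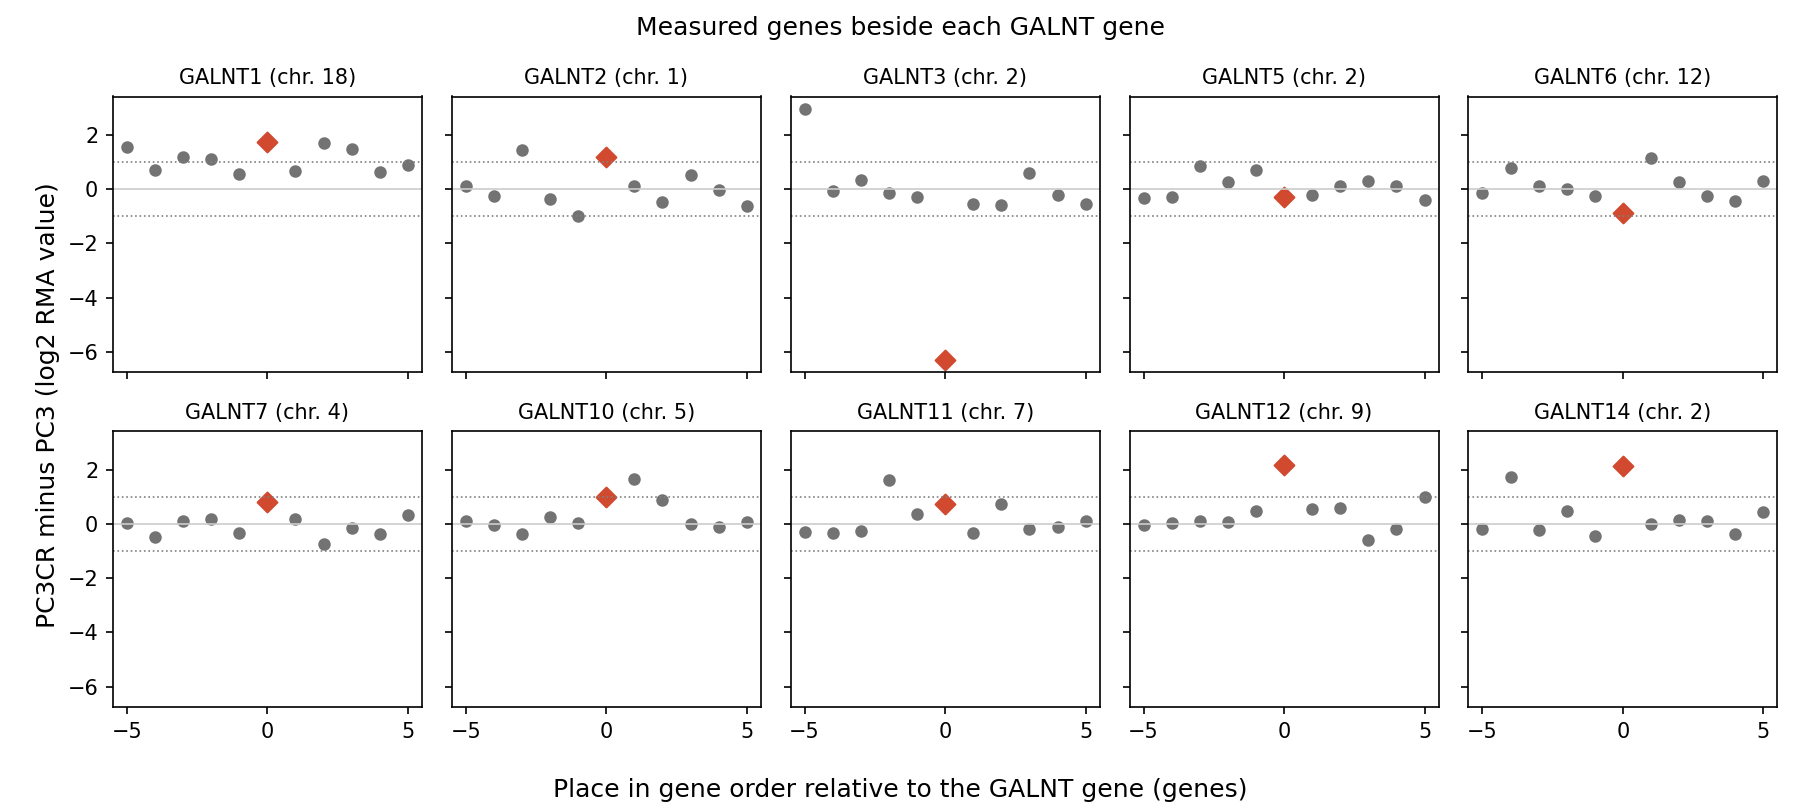
PC3CR minus PC3 in log2 RMA units (vertical axis) for each GALNT gene (red diamond at place 0) and the 5 nearest measured genes on either side (grey points), against place in gene order (horizontal axis). Dotted lines mark 2-fold. All neighbours of GALNT1 lie above 0, and the diamonds of GALNT1, GALNT3, GALNT6, GALNT7, GALNT12 and GALNT14 lie beyond all of their neighbours, that of GALNT1 by less than the size of the symbol.

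The steps before and after the GALNT reaction were described with gene lists, chosen with earlier results of these data known. Beside the count of each list stand the shares over all genes, 9.84% past 2-fold upward and 6.72% downward. The donor UDP-GalNAc comes from the hexosamine pathway, and the same list holds the genes that make and carry sialic acid donors. Of 9 such genes measured, none passed 2-fold upward and 2 passed it downward, and the median was -0.07. GNPNAT1, which acetylates glucosamine 6-phosphate, read 11.13 in PC3 and 9.72 in PC3CR and so differed by -1.40. UAP1, which makes the UDP-sugar, was at 11.80 and 10.48, a difference of -1.32. Each was read by 1 probe set. GFPT1, the entry enzyme of the same pathway, differed by -0.07, and its 4 probe sets by between -0.08 and 1.03.

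Lengthening of the first GalNAc is begun by C1GALT1 and its chaperone C1GALT1C1, which differed by 0.13 and 0.23. Of 7 genes of core and branch enzymes, GCNT1, which branches core 1 into core 2, was at least 2-fold higher, from 5.01 to 6.59, a difference of 1.58. B3GNT3, which extends core 1, was at least 2-fold lower, from 6.68 to 5.51, a difference of -1.17. The list had a median of 0.09.

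Genes of the enzymes that add sialic acid were lower about as often as higher, with the largest difference downward. Of 9 sialyltransferase genes, 2 passed 2-fold downward and 1 upward, and the median was -0.39. ST3GAL1, which caps the galactose of core 1, read 9.14 in PC3 and 5.64 in PC3CR, 11.3-fold apart with a difference of -3.50. The gene was lower on each of 3 probe sets, whose values ran from -3.50 to -1.96. ST3GAL4 was at 7.28 and 5.80, a difference of -1.47, and its other probe set differed by -0.37. ST6GALNAC3, at 3.67 in PC3 and 5.09 in PC3CR, differed by 1.42 with its PC3 value below the lower quartile.

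The proteins that carry these glycans were mostly within 2-fold. Of 14 mucin genes, MUC5B passed 2-fold downward, from 6.31 to 5.01, none passed it upward, and the median was -0.22. The second probe set of MUC5B differed by -0.07, and the mean of both by -0.68, within 2-fold. In 3 of the 14 the higher value reached the array median. MUC1, the transmembrane mucin of most epithelia, read 6.15 in PC3 and 6.91 in PC3CR and so differed by 0.76. Among 11 other acceptor proteins, 3 passed 2-fold downward and 1 upward, and the median was -0.27. The lower ones were FN1, the gene of fibronectin, an acceptor of GALNT3 and GALNT6, at -3.30, PLTP at -2.25 and the hyaluronan receptor gene CD44 at -1.89. One of 7 probe sets of FN1 and 1 of 13 of CD44 were higher, by 0.05 and 0.14. The higher one was SPP1, the gene of the O-glycosylated protein osteopontin, which differed by 6.48, from 2.75 to 9.23. Its PC3 value lay below the lower quartile, which limits the size, and its second probe set differed by 0.71. FGF23 was at 4.22 and 4.10, TNFRSF10A and TNFRSF10B, the death receptor genes, differed by -0.27 and -0.58, and NOTCH1 by -0.14.

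Enzymes of other Golgi and ER glycosylation also included large increases. Of 15 genes that begin other kinds of protein O-glycosylation, 3 passed 2-fold upward and 1 downward, and the median was 0.48. POGLUT3, an O-glucosyltransferase, differed by 2.27, and TMTC4 and TMTC3, O-mannosyltransferases for cadherins, by 2.16 and 1.90. TMTC1 of the same group differed by -1.04, to a PC3CR value below the lower quartile, with a mean of -0.24 over its 4 probe sets. Of 13 genes of N-glycan trimming and branching, 4 passed 2-fold upward and 2 downward, and the median was 0.56. They included the mannosidase gene MAN1C1 at 2.74, MGAT2, which begins the second antenna, at 1.999, MGAT4A at 1.69, and FUT8, which adds the core fucose, at -1.59. As the mean of their probe sets MAN1C1 and MGAT4A differed by 1.47 and 0.69.

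Golgi enzymes are kept in place by tethers and by the coat adaptor GOLPH3. Of 13 genes of this kind, 1 passed 2-fold upward and 2 downward, and the median was 0.52. COG3, a subunit of the COG tether, read 9.39 in PC3 and 7.10 in PC3CR and so differed by -2.29 with both probe sets lower. COG1 differed by -1.04, with 1 of 3 probe sets at the same value on both arrays. GORASP1 differed by 1.08, and its second probe set by -0.30.

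GALNT3 is regarded as an epithelial gene, and its values were set beside genes of epithelial identity. Of 15 measured, 10 passed 2-fold downward in PC3CR, none passed it upward, and the median was -2.07. Among all genes, 6.72% passed 2-fold downward and 9.84% upward. The list was chosen with earlier results of these data known, so its count is a description. CLDN4, a tight junction claudin, read 9.08 in PC3 and 4.11 in PC3CR and so differed by -4.97, although its second probe set differed by -0.19. RAB25, an epithelial trafficking GTPase, was at 7.72 and 3.51, a difference of -4.20 with the PC3CR value below the lower quartile. KRT19 differed by -3.28 and ESRP1, the epithelial splicing factor, by -2.51. CDH1, the gene of E-cadherin, was at 8.75 and 8.08, a difference of -0.67, and KRT8 and KRT18 differed by 0.07 and 0.67. The epithelial list was thus lower in part. VIM, the only mesenchymal marker read, was higher by 1.21. The fibroblast marker COL1A1 differed by -2.12, the fibronectin gene FN1 by -3.30, TWIST1 by -4.48 and TWIST2 by 1.62. A shift to a mesenchymal state was not tested. How far GALNT3 and the epithelial genes share a cause was not tested.

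Genes of E-cadherin repressors, among them those known to bind CACCTG, were also read. Of 6 such genes, 1 passed 2-fold upward and 1 downward, and the median was -0.32. ZEB1 read 8.02 in PC3 and 8.42 in PC3CR and so differed by 0.39. SNAI1 and SNAI2 differed by -0.63 and -0.96, and ZEB2 lay near the floor at 3.33 on both arrays. Of the other genes of this list, TWIST1 was lower, from 7.502 to 3.02, a value below the lower quartile, and TWIST2 higher, from 6.06 to 7.68. The second probe set of TWIST2 differed by 0.19. Protein and binding were not measured on these arrays, and a part of these factors in the GALNT values was not tested.

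**Figure D4:**
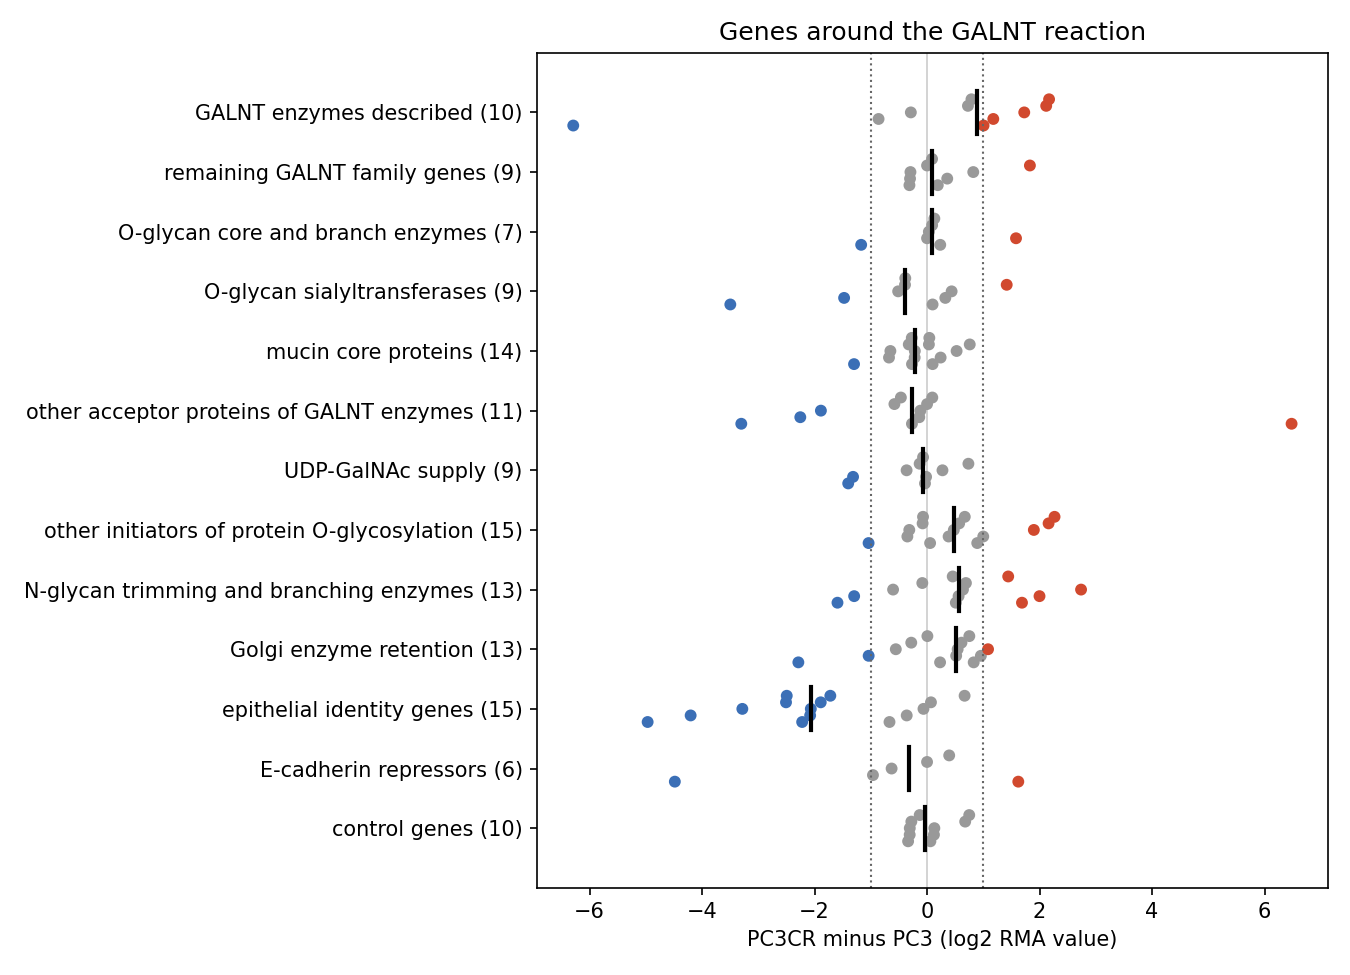
PC3CR minus PC3 in log2 RMA units (horizontal axis) for the genes of each list. A point is a gene, the bracket beside a list counts its measured genes, red marks genes past 2-fold upward, blue those past it downward and grey the rest, black bars are medians and dotted lines mark 2-fold. The GALNT genes described here have a median of 0.90 with GALNT3 far to the left, and the epithelial identity genes have a median of -2.07.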

How the data were processed

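Total RNA of PC3 and PC3CR was measured on 1 array each. The deposited values, 1 per probe set, are on the log2 scale and were made by the authors with RMA, which corrects background and equalises the distributions of the arrays. The submitters' processing notes list RMA together with Expression Console 1.4 and Transcriptome Analysis Console 3.1. After RMA a gap in RNA content between the lines would not be seen. Probe set identifiers match the platform annotation of the U133 Plus 2.0 array, but another Affymetrix array is named in the study's methods.

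Probe sets with exactly 1 gene symbol in the platform annotation were used (41091 of 54613), and for 41037 of them the symbol could be brought up to date by Entrez ID in RefSeq (GRCh38.p14). That table also gave gene order, and no genome build is given for the arrays in the sources used here. A gene was represented by the probe set with the highest mean of both arrays. The 2-fold threshold is that of the methods, and no gene was removed for low signal. With 1 array per cell line no test was possible, and precision is limited by the array number. The members and gene lists were chosen with earlier results of these data known. Named are all members with each probe set, in each list the 4 largest differences past 2-fold, or the 2 largest if there were none, the 5 genes nearest to GALNT3, and neighbours past 2-fold. Further genes of the lists and markers (among them GFPT1, C1GALT1, MUC1, FGF23, TNFRSF10A, NOTCH1, CDH1, KRT8, ZEB1 and SNAI2, and sodium channel genes beside GALNT3) were added after their values were seen. Alternatives were median centring, loess centring (span 0.4), quantile normalization, the mean of probe sets, probe sets with a plain _at ending, thresholds of 1.5-fold and 4-fold, and a floor on signal (brighter array at or above the median of genes). The procedure was tested on simulated data. Some list genes were not analysed here. Protein sequences were not used here. Calculations ran in Python 3.11.15 (pandas 2.3.3, numpy 2.4.6 and, for loess, statsmodels 0.14.6), and plots in matplotlib 3.10.9.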

Additional observations from a re-analysis of the deposited data

How the results depend on the processing

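No paired analysis was possible because each cell line had 1 array. No member changed direction under any scaling or probe set choice run, but for most this could not have come out otherwise. GALNT11 and GALNT14 have 1 probe set, and in 7 of the 8 other members all probe sets had one direction. Median centring had little to change, as the medians over probe sets were 4.815 in PC3 and 4.812 in PC3CR. The number of GALNT genes at least 2-fold higher was 5 as reported, 3 with the mean of probe sets, and 2 with plain _at probe sets or at 4-fold. The number at least 2-fold lower was 1 as reported, 2 with the mean of probe sets (GALNT3 and GALNT6) or at 1.5-fold, and 0 with plain _at probe sets, where GALNT3, GALNT7 and GALNT12 have no value. The median of the GALNT genes was 0.78 after loess centring, 0.68 with the mean of probe sets, 0.27 with plain _at probe sets and 1.004 with the floor on signal. GALNT1 and GALNT2 came within 2-fold with plain _at probe sets, at 0.18 and 0.27. That setting left only the dimmest probe set of each gene. It read 4.32 in PC3 and 4.50 in PC3CR for GALNT1, and 5.11 and 5.38 for GALNT2, below the median of genes on both arrays. Of the 100 measured genes of the 9 lists of glycosylation, acceptors and Golgi retention, 12 were at least 2-fold higher, or 24 at 1.5-fold and 4 at 4-fold. Of the same genes 14 were at least 2-fold lower, or 9 with the mean of probe sets, 8 with plain _at probe sets and 4 at 4-fold. At 2-fold as reported, the shares over all genes were 9.84% higher and 6.72% lower. No such share is given for the other settings, so the other counts of this paragraph, those of the GALNT genes included, have no background beside them. With plain _at probe sets FN1 differed by 0.0457, GALNT16 by -0.23 and GORASP1 by -0.30, each opposite to the reported sign. A value was taken as moved above 0.1 on the log2 scale and a count above 1.5 times. These settings do not replace replicate cultures, and values near the floor of the array limit the size of a decrease.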

Other observations

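Other enzymes that transfer GalNAc, onto glycolipids or onto other sugars and not onto serine or threonine, carry similar names and were looked at after the values of the family had been seen. B3GALNT1, the globoside synthase, read 6.86 in PC3 and 4.47 in PC3CR and so differed by -2.39, and its 3 probe sets differed by between -2.75 and -2.35. B4GALNT1, which makes the gangliosides GM2 and GD2, read 5.10 in PC3 and 6.45 in PC3CR and so differed by 1.35, with a second probe set at 0.37. B3GALNT2, which acts on dystroglycan, differed by 0.73.

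GALNT4 shares its probe sets with the readthrough gene POC1B-GALNT4, and they were left out of all counts. They were at 4.70 and 4.77 in PC3 and at 4.80 and 5.05 in PC3CR. GALNT7-DT, a divergent transcript beside GALNT7, differed by -0.35, and 1 of its 3 probe sets differed by 0.97.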
